A study of Mus musculus with 9 samples.

Results

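The 8 GIMAP genes of the table, *Gimap1*, *Gimap3*, *Gimap4*, *Gimap5*, *Gimap6*, *Gimap7*, *Gimap8* and *Gimap9*, were followed in developing thymic iNKT cells, invariant natural killer T cells that recognise glycolipids on CD1d. They were chosen by symbol as the family of lymphocyte GTPases clustered on chromosome 6, whatever their values, and make up 8 of the 21883 genes measured. RNA of iNKT cells sorted from C57BL/6 thymus gave 9 libraries: 3 were of WT cells at stage 2, 3 of WT cells at stage 3 and 3 of *Med23*-deficient cells at stage 2. Stage 2 cells are CD44 high and NK1.1 low, and stage 3 cells, the most mature in the thymus, have gained NK1.1. *Med23* is a subunit of the Mediator complex that links transcription factors to RNA polymerase II. The *Med23*-deficient cells came from *Med23* fl/fl mice carrying Cd4-Cre, which is first active at the double-positive thymocyte stage and so acts in conventional αβ T cells as well as in iNKT cells. The series text gives an age of 6 weeks for the WT mice. No treatment is given for any of the libraries. Levels are FPKM, fragment counts scaled to transcript length and library size by the authors. No source says whether the replicates were separate mice, so the p-values measure the spread between these samples only.

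GIMAP proteins (GTPases of the immunity-associated protein family) carry an AIG1-type GTP-binding domain and sit mostly on intracellular membranes of lymphocytes. Loss of *Gimap5* or *Gimap1* strips the periphery of long-lived T cells, and the family is best known for keeping resting lymphocytes alive and for setting when they die. Members differ in how they end: *Gimap5*, *Gimap3* and *Gimap1* carry a hydrophobic carboxy terminus that anchors them in membranes, while others such as *Gimap7* lack one and hydrolyse GTP when they pair.

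The members lie within 123.6 kb, at chr6:48647234-48770851 of mm10. They follow each other in the order *Gimap8*, *Gimap9*, *Gimap4*, *Gimap6*, *Gimap7*, *Gimap1*, *Gimap5* and *Gimap3*. *Gimap6* and *Gimap3* are transcribed from the minus strand and the other 6 from the plus strand. Each gene has the same identifier, start and end in GENCODE vM21 as in the table. The longest coding sequence of *Gimap8* has 688 codons and encodes 3 copies of the phosphate-binding loop, the stretch that wraps around the phosphates of GTP, against 291 to 328 codons and 1 copy in each of the others.

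The coding stretch around the phosphate-binding loop is printed because it shows how closely the members are related, which bears on how reads could be assigned to them. The sequences are from GENCODE vM21 transcripts on mm10, 5′ to 3′ on the coding strand, and lie within 1 coding exon each. The capitals mark the 24 bases that encode the loop, and for *Gimap8* the first of its loops is shown.
Gimap8 (chr6:48650244-48650291, plus strand): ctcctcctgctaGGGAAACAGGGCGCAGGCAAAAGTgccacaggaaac
Gimap9 (chr6:48677511-48677558, plus strand): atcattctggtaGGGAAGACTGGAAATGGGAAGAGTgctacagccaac
Gimap4 (chr6:48690409-48690456, plus strand): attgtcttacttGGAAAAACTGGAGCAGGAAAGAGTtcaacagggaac
Gimap6 (chr6:48702738-48702785, minus strand): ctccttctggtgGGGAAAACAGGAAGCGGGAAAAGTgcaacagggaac
Gimap7 (chr6:48723512-48723559, plus strand): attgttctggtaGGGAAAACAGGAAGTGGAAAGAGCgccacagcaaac
Gimap1 (chr6:48742540-48742587, plus strand): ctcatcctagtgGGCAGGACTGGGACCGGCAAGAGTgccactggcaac
Gimap5 (chr6:48752582-48752629, plus strand): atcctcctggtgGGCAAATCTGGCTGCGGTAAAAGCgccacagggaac
Gimap3 (chr6:48765875-48765922, minus strand): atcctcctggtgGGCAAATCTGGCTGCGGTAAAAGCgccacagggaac

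*Gimap3* and *Gimap5* were identical in all 48 of these bases, and no other pair matched in more than 39. Over their whole coding sequences they matched in 799 of 899 aligned bases, or 88.9%. The other pairs matched in 55.8% to 73.3% of theirs. Of the 50-base windows of the longest coding transcript, 190 of 2096 in *Gimap3* (9.07%) and 190 of 1904 in *Gimap5* (9.98%) occurred in the other gene as well, and no window of the other 6 members occurred in another member. The authors kept reads that hit no more than 2 loci, so a read from a shared window could be counted for either gene, and the split between *Gimap3* and *Gimap5* is uncertain to that extent. At 100 bases, 41 windows were still shared, 2.0% of those of *Gimap3* and 2.21% of those of *Gimap5*.

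Another pair of gene models overlaps the cluster. *Gm28053*, a read-through model that spans *Gimap7*, *Gimap1* and *Gimap5* on their own strand, shares 198 exonic bases with *Gimap1*, 153 with *Gimap5* and 81 with *Gimap7*. *Gimap1os* runs antisense to *Gimap1* and covers 36.0% of its exonic bases. The kit marks strand, but whether the counting used it is not given in the sources used here, so reads of *Gimap1* and *Gimap1os* may not have been told apart.

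All 72 values of the 8 members over the 9 libraries were above 0. *Gimap4*, which promotes the death of T cells once it is under way, was the most abundant member in every group. Its mean level exceeded that of 99.3% of all genes in WT stage 2 cells and of 99.5% in WT stage 3 cells. *Gimap7* was the least abundant, above 66.3%, 73.4% and 52.5% of genes at WT stage 2, at WT stage 3 and in the *Med23*-deficient cells. Per kilobase, the order of the group means was the same in all 3 groups: *Gimap4*, *Gimap3*, *Gimap6*, *Gimap8*, *Gimap9*, *Gimap5*, *Gimap1* and *Gimap7*. Not every neighbour in that order was apart. In WT stage 2 cells the libraries of *Gimap3* and *Gimap6*, of *Gimap8* and *Gimap9*, and of *Gimap5* and *Gimap1* overlapped. The same held for *Gimap8* and *Gimap9* in the other 2 groups and for *Gimap5* and *Gimap1* in WT stage 3 cells.

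**Figure D1:**
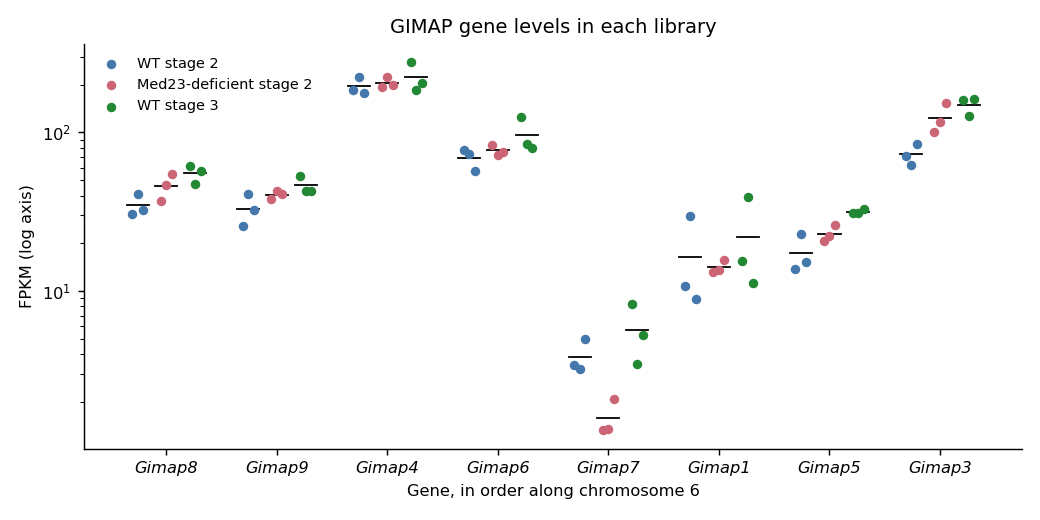
FPKM of the 8 GIMAP genes in each library, on a log axis, with genes in their order along chromosome 6. Points are single libraries and bars are group means, with n = 3 per group. The 3 WT stage 3 libraries lie above the 3 WT stage 2 libraries for Gimap8, Gimap9, Gimap6, Gimap5 and Gimap3, and the Med23-deficient libraries have the lowest Gimap7.

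The labelled cells were checked first. First, the FPKM of 5 T and iNKT cell markers (*Cd3e*, *Cd3d*, *Zbtb16*, *Cd44* and *Il2rb*) was summed. It was 455 to 488 in WT stage 2, 579 to 604 in WT stage 3 and 452 to 461 in *Med23*-deficient libraries. The 5 did not move together. From WT stage 2 to WT stage 3 the mean of *Zbtb16* went from 101 to 27.5 and that of *Il2rb* from 121 to 311. The stage 3 markers were *Klrb1c*, which encodes NK1.1, *Tbx21* and *Klrd1*. The sum of these 3 was 40.8 to 67.8 in WT stage 2, 197 to 264 in WT stage 3 and 41.8 to 47.3 in *Med23*-deficient cells. B cell, myeloid and erythroid markers, of which 3, 4 and 1 of 6 each were in the table, summed to at most 2.33 in any library. Of the endothelial markers 2 of 6 were in the table, and their sum of 1.76 to 10.8 was nearly all *Pecam1*, with *Egfl7* at or near 0. The 7 markers of double-positive thymocytes summed to 3.19 to 4.16 in WT stage 2, 3.0 to 5.05 in WT stage 3 and 1.07 to 3.81 in *Med23*-deficient cells. Their highest values in any library were 3.05 for *Cd8b1*, 1.83 for *Dntt*, 1.64 for *Cd8a* and 1.58 for *Rag1*. *Rag2*, *Ptcra* and *Arpp21* were at most 0.26. The 3 stage 3 markers did not go the same way between the genotypes. *Klrb1c* was 7.65 to 26.2 in WT stage 2 and 2.61 to 4.6 in *Med23*-deficient libraries. *Klrd1* was 4.66 to 12.8 and 0.61 to 2.72 in these groups, while *Tbx21* was 20.4 to 37.15 and 34.9 to 43.6. The part of these markers in the differences between the groups was not tested. A single non-coding model, *Gm23935*, took 62.2% to 71.9% of the summed FPKM of a library, and 15584 to 17333 genes were above 0. In bulk samples such as these, fewer cells that express a gene and less of its RNA per cell cannot be told apart.

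The first comparison asked how the family differs between stage 2 and stage 3 in WT mice. The 8 members together were higher at stage 3, led by *Gimap3* and *Gimap5*. Their summed FPKM was 418, 497 and 412 in the 3 WT stage 2 libraries, with a mean of 442 ± 47.2 (SD, n = 3). It was 731, 562 and 595 at stage 3, with a mean of 629 ± 89.3. The groups did not overlap, and the ratio of the means was 1.42 (exact two-sided permutation p = 0.1, n = 3 per group, the smallest p this design allows). All 8 members had a higher mean log2 value at stage 3, as had 46.9% of all genes. Their median log2 fold change was 0.48, beside -0.01 over all 20689 genes tested and -0.05 over genes whose mean FPKM reached 1. In limma, with p adjusted by Benjamini and Hochberg and a threshold of 0.05, 1 of the 8 rose and 0 fell, where 1.67% of all genes were called, 0.759% as higher and 0.914% as lower. In 5 of the 8 the stage 3 libraries all lay above the stage 2 libraries, as in 7.36% of all genes.

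*Gimap3*, the mouse gene next to *Gimap5* that has no working counterpart in humans, was the member called. Its FPKM was 71.2, 62.7 and 84.6 in WT stage 2 cells and 160, 127 and 162 in WT stage 3 cells. Every stage 3 library was thus well above every stage 2 library, and the mean went from 72.8 ± 11.1 to 150 ± 19.5 (SD, n = 3). On the log2(FPKM + 1) scale, which holds for every fold change here, the rise was 1.03 ± 0.15 (SE), a fold of 2.04, with a limma adjusted p of 0.0412. With the limma p, *Gimap3* also passed the thresholds of the study, a fold of at least 2 with an unadjusted p of at most 0.05. So did 3.6% of all genes. In a model in the style of Ballgown, the tool of the authors, its log2 fold change was 0.93 (unadjusted p = 0.0351), short of that fold. The call rests on all 6 libraries: leaving out any 1 of them, WT stage 2 or WT stage 3, kept the log2 fold change between 0.93 and 1.14 but moved the adjusted p to between 0.077 and 0.135.

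*Gimap5*, without which T cells leaving the thymus do not survive, had the second largest difference. Its FPKM was 13.7, 22.9 and 15.3 at stage 2 and 31.0, 31.1 and 32.8 at stage 3. The groups were apart, and the stage 3 libraries were close to each other (SD 0.98, against 4.89 at stage 2). The log2 fold change was 0.87 ± 0.19 (SE), with an unadjusted limma p of 0.0037 and an adjusted p of 0.103. Without WT stage 2 replicate 2, whose *Gimap5* was the highest of its group, the adjusted p was 0.035 and the log2 fold change 1.07. Leaving out any other single library gave a limma adjusted p of 0.211 to 0.265 and a log2 fold change of 0.72 to 0.88. Because reads of *Gimap3* and *Gimap5* can be exchanged, their sum was taken too. It was 84.9, 85.5 and 99.97 at stage 2 and 191, 158 and 194 at stage 3. That is a ratio of 2.01 between the means, with no overlap (exact permutation p = 0.1).

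*Gimap8* and *Gimap9* followed. *Gimap8*, the long member with several GTP-binding domains, had an FPKM of 30.7, 40.6 and 32.6 at stage 2 and 61.0, 47.3 and 57.3 at stage 3. The libraries did not overlap, and the log2 fold change was 0.66 ± 0.15 (SE; limma adjusted p = 0.110). *Gimap9* was 25.6, 41.1 and 32.6 at stage 2 and 53.5, 42.7 and 42.8 at stage 3. Here the lowest stage 3 library was only just above the highest stage 2 library, with a log2 fold change of 0.49 ± 0.19 and a limma adjusted p of 0.344.

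Like *Gimap8* and *Gimap9*, *Gimap6*, which binds a GABARAP-type protein of the autophagy machinery, and *Gimap4* were not called by adjusted p. The FPKM of *Gimap6* was 77.4, 72.6 and 56.9 at stage 2 and 125, 84.8 and 80.3 at stage 3. The *Gimap6* groups did not overlap, though 77.4 and 80.3 were close. WT stage 3 replicate 1 stood above the rest, and the log2 fold change was 0.47 ± 0.21 (limma adjusted p = 0.414). For *Gimap4* the values were 186, 224 and 176 at stage 2 and 277, 186 and 204 at stage 3. The groups overlapped and the log2 fold change was 0.17 ± 0.18 (95% interval -0.27 to 0.61, limma adjusted p = 0.696).

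The other 2 members, *Gimap7* and *Gimap1*, had the largest standard errors in this comparison. *Gimap7*, the homodimerising GTPase, had an FPKM of 3.39, 3.23 and 4.96 at stage 2 and 8.31, 3.48 and 5.24 at stage 3. The groups overlapped, with a log2 fold change of 0.41 ± 0.31 (limma adjusted p = 0.667). *Gimap1*, which mature T and B cells need to persist, was 10.7, 29.5 and 8.88 at stage 2 and 15.4, 39.3 and 11.2 at stage 3. Replicate 2 of each WT group stood far above the other 2 libraries of its group. The log2 fold change was 0.40 ± 0.60, with a 95% interval from -1.06 to 1.85. Without WT stage 3 replicate 2 it was -0.11, and without WT stage 2 replicate 2 it was 0.90.

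**Figure D2:**
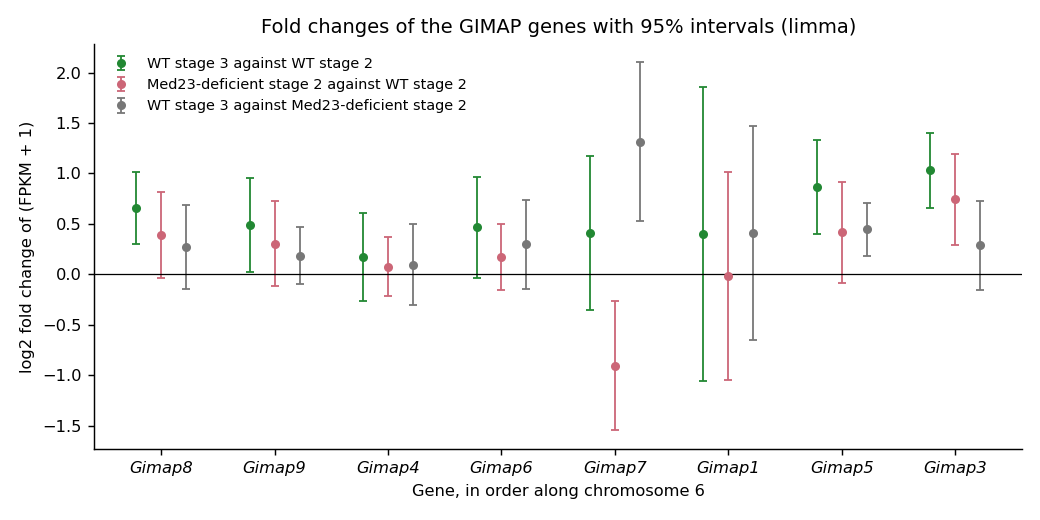
Log2 fold changes of (FPKM + 1) for the 8 GIMAP genes in 3 comparisons, from limma with 3 libraries per group. Points are estimates and bars are 95% intervals, not adjusted for the number of genes. All 8 points of WT stage 3 against WT stage 2 lie above 0, from 0.17 for Gimap4 to 1.03 for Gimap3, and Gimap7 is the member that lies clearly below 0 in Med23-deficient stage 2 cells, at -0.91.

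The models that overlap *Gimap1* are given beside it. *Gm28053* was 6.00, 23.1 and 20.8 in WT stage 2 and 6.01, 3.34 and 20.5 in WT stage 3. In WT stage 2 replicate 2 both *Gimap1* and *Gm28053* were high, whereas in WT stage 3 replicate 2 *Gimap1* was high and *Gm28053* low. *Gimap1os* was 7.16, 5.17 and 3.28 in WT stage 2 and 11.6, 5.07 and 8.59 in WT stage 3. The part of either model in the *Gimap1* values was not tested.

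The second comparison set *Med23*-deficient against WT stage 2 cells, and so asked what loss of *Med23* does to the family at the same stage. *Med23* itself was 5.51, 5.15 and 6.74 in WT stage 2, 4.80, 3.60 and 3.92 in *Med23*-deficient stage 2, and 7.14, 4.44 and 6.12 in WT stage 3 cells. Each *Med23*-deficient stage 2 library was below each WT stage 2 library, but the log2 fold change of -0.41 ± 0.18 (SE) did not pass the test (limma adjusted p = 0.552). An FPKM over the whole gene can include transcript outside the deleted part, and whether it does so here was not tested. Of the members, 6 had a higher and 2 a lower mean in *Med23*-deficient cells, where 47.3% of all genes were higher, with a median log2 fold change of 0.24, beside -0.01 over the 20674 genes tested. By adjusted p 0 of the 8 were called, where 0.213% of all genes were. At an unadjusted p of at most 0.05 there were 1 higher and 1 lower, where 3.56% of genes were higher and 6.02% lower. A Ballgown-style model called 0 by adjusted p as well, and 0 members passed the fold and p thresholds of the study, which 2.11% of genes passed. *Gimap7* passed both with a pseudocount of 0.1 or 0.01, and without *Med23*-deficient replicate 3, where 4.7%, 4.71% and 2.45% of all genes did.

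*Gimap3* was again the member with the highest estimate. Its FPKM was 101, 116 and 153 in the *Med23*-deficient libraries, all above the WT stage 2 range of 62.7 to 84.6. One member of 8 was so placed, beside 5.63% of all genes. The log2 fold change was 0.74 ± 0.18 (SE), with an unadjusted limma p of 0.00669 and an adjusted p of 0.238. Summed with *Gimap5*, it was 122, 138 and 180, or 1.63 times the WT stage 2 mean with no overlap (exact permutation p = 0.1).

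*Gimap7* went the other way. It was 1.32, 1.35 and 2.09 in *Med23*-deficient cells, below all WT stage 2 libraries (3.23 to 4.96). The log2 fold change was -0.91 ± 0.26 (SE), a fold of 0.534 on the log2(FPKM + 1) scale, with an unadjusted limma p of 0.0134 and an adjusted p of 0.329. Of all genes, 8.37% had their *Med23*-deficient libraries all below the WT stage 2 ones. The estimate was negative under each of 16 alternative settings, from -1.28 to -0.75, and no setting called it by adjusted p. *Gimap7* is low enough that a pseudocount of 1 pulls its fold towards no change. With 0.1 the log2 fold change was -1.24 (limma unadjusted p = 0.0103). That passes the fold and p thresholds of the study, as 4.7% of all genes did at this pseudocount. In the Ballgown-style model *Gimap7* passed neither threshold, with a log2 fold change of -0.83 and an unadjusted p of 0.113.

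The remaining members overlapped between the genotypes. *Gimap5* was 20.6, 22.2 and 26.2 in *Med23*-deficient cells, with a log2 fold change of 0.42 ± 0.21 (limma adjusted p = 0.600). *Gimap8*, at 36.9, 46.3 and 54.6, had 0.39 ± 0.18 (limma adjusted p = 0.555). Both lay between the means of WT stage 2 and WT stage 3 cells. *Gimap9* was 37.8, 42.6 and 40.8, with 0.30 ± 0.17, and *Gimap6* was 83.3, 72.3 and 75.7, with 0.17 ± 0.13. The FPKM of *Gimap4* was 194, 223 and 199, with 0.08 ± 0.12 and a 95% interval from -0.21 to 0.37. *Gimap1* was 13.2, 13.5 and 15.6, and its 3 *Med23*-deficient libraries were much closer to each other than those of either WT group. Its log2 fold change of -0.02 ± 0.42 rested on WT stage 2 replicate 2, without which it was 0.48. In these libraries *Gm28053* ranged from 2.20 to 24.4 and *Gimap1os* from 7.02 to 8.01.

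WT stage 3 and *Med23*-deficient stage 2 cells were both compared with the same WT stage 2 libraries, so their values share controls and are only set side by side. Between themselves they differ in stage and genotype at once, and the direct fit tests whether the fold changes of the first 2 comparisons differ. All 8 members had the higher mean in WT stage 3 cells, as had 49.5% of all genes, with a median log2 fold change of 0.29 beside a median of -0.0035 over the 20846 genes tested. By adjusted p 0 of 8 were called, where 1.33% of all genes were. At an unadjusted p of at most 0.05 there were 2 higher, *Gimap7* and *Gimap5*, where 4.89% of genes were. For *Gimap7* the WT stage 3 libraries (3.48 to 8.31) all exceeded the *Med23*-deficient ones (1.32 to 2.09), with a log2 fold change of 1.32 ± 0.32 (SE; limma unadjusted p = 0.0063, adjusted p = 0.177). It passed the fold and p thresholds of the study, as 2.86% of genes did. *Gimap5* was likewise apart, with 0.45 ± 0.11 (limma unadjusted p = 0.00579, adjusted p = 0.171), and so was *Gimap9*, whose groups met at 42.63 and 42.72. A full separation upwards was found in these 3 members and in 6.75% of all genes. *Gimap3* did not differ beyond the spread, with 0.29 ± 0.18 and a 95% interval from -0.16 to 0.73.

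The share of each member in the family total was compared next. *Gimap4* made up 44.4%, 45.1% and 42.7% of the family's summed FPKM in WT stage 2 cells, 37.9%, 33.2% and 34.2% in WT stage 3 cells and 39.8%, 41.5% and 35.0% in *Med23*-deficient cells. Both latter groups lay below WT stage 2 (exact permutation p = 0.1 each). The share of *Gimap3* was 17.0%, 12.6% and 20.5% in WT stage 2, 21.9%, 22.6% and 27.2% in WT stage 3 and 20.7%, 21.6% and 27.1% in *Med23*-deficient cells. Its groups were apart from WT stage 2 as well, by a small gap, since the highest WT stage 2 library was 20.5% (exact permutation p = 0.1 each). The log2 ratio of *Gimap3* to *Gimap4* does not depend on how a library was scaled. Its mean was -1.43 ± 0.39 (SD, n = 3) in WT stage 2, -0.56 ± 0.23 in WT stage 3 and -0.75 ± 0.33 in *Med23*-deficient cells. Both latter groups lay above WT stage 2 (exact permutation p = 0.1 each). The log2 ratio of *Gimap3* to *Gimap6* was 0.08 ± 0.43, 0.65 ± 0.33 and 0.66 ± 0.37 in the same order. There both latter groups overlapped with WT stage 2 (exact permutation p = 0.2 each). *Gimap7* held 0.888% ± 0.285 of the sum in WT stage 2 and 0.879% ± 0.259 in WT stage 3, but 0.297% ± 0.0629 in *Med23*-deficient cells, with no overlap between the genotypes. Without *Gimap4* the family summed to 247 ± 22.2, 407 ± 41.5 and 326 ± 38.4 in the WT stage 2, the WT stage 3 and the *Med23*-deficient libraries. No pair of groups overlapped (exact permutation p = 0.1 each). *Gimap4* is, however, the member with the smallest log2 fold change at stage 3 (0.17), so this sum adds no support beyond the full one. With *Gimap4* the *Med23*-deficient sum of 531 ± 39.6 overlapped with both others (exact permutation p = 0.2 each).

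**Figure D3:**
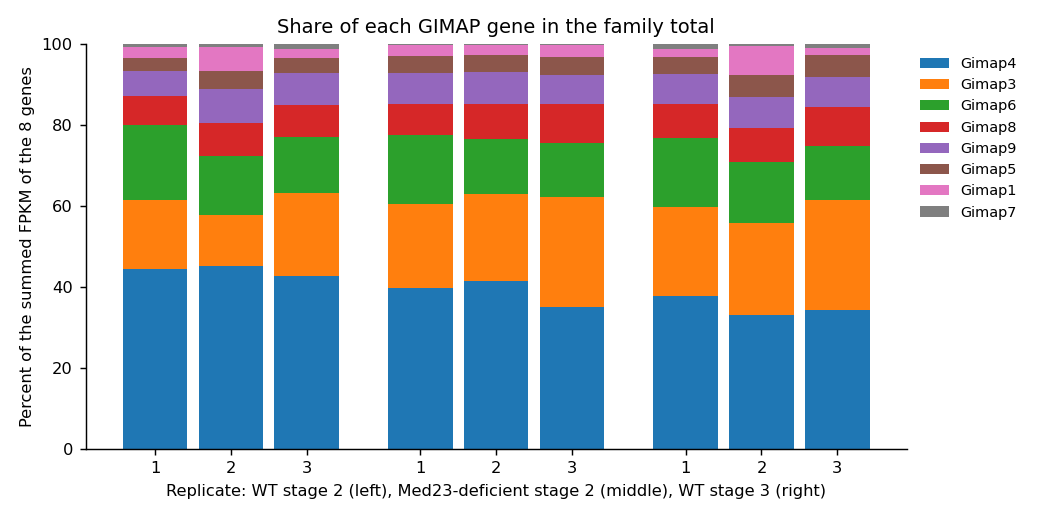
Share of each GIMAP gene in the summed FPKM of the 8 genes, in percent, with 1 bar per library and 3 libraries per group. The lowest segment, Gimap4, is 42.7% to 45.1% in WT stage 2 libraries and 33.2% to 41.5% in the other 6, and the segment above it, Gimap3, is 12.6% to 20.5% and 20.7% to 27.2%.

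Likeness of pattern was measured as the root mean square difference between centred log2(FPKM + 1) values over the 9 libraries. *Gimap8* and *Gimap5* were each other's nearest member, at 0.159. Among 6377 genes whose mean FPKM reached 5, *Gimap5* stood in place 11 from *Gimap8* and *Gimap8* in place 10 from *Gimap5*. The nearest member to *Gimap9* and *Gimap3* was also *Gimap8*, in places 22 and 37. *Gimap6* was nearest to *Gimap4*, in place 45, and *Gimap4* to *Gimap9*, in place 286. *Gimap7* and *Gimap1* were the farthest from their nearest member, at 0.58 and 0.55, in places 1076 and 360. The summed FPKM of the family was compared with 6371 genes. Leaving out those with Gm-number or Rik names, the 5 most like it were *Srsf5*, *Pdcd4*, *Slk*, *Mical1* and *Tbc1d9b*, at 0.079 to 0.093. *Pdcd4*, an inhibitor of translation, went from a mean of 129 in WT stage 2 to 166 in WT stage 3 and 154 in *Med23*-deficient cells. These are descriptions of 9 libraries that share their groups.

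Genes around the cluster were set beside the members. Within 500 kb of the outermost members the table lists 29 other genes and gene models, of which 17 reached a mean FPKM of 1 in some group. Of the 14 among these that lie outside the cluster, 4 were higher and 10 lower in WT stage 3 than in WT stage 2, with a median log2 fold change of -0.17, where 46.9% of all genes were higher. In *Med23*-deficient cells 2 were higher and 12 lower, with a median of -0.20, where 47.3% of all genes were higher. By adjusted p 0 were called in either comparison (limma). At an unadjusted p of at most 0.05 there were 1 higher and 4 lower in the first, beside 5.44% and 7.79% of all genes. In the second there were 0 higher and 3 lower, beside 3.56% and 6.02%. The filter bears on these counts. *Lrrc61*, *Tmem176b*, *Tmem176a* and *Igf2bp3* reached a mean of 1 only in WT stage 2 and so could only be lower. The last 3 of these were the 3 lower in the second. In the same way *Repin1* and *Zfp775* in the first, and *Repin1* and *Gm24325* in the second, could only be higher. At the distal side, the membrane protein gene *Tmem176b* was 4.78, 3.37 and 2.02 in WT stage 2 and 0.00, 0.71 and 1.0 in WT stage 3 cells. It was listed at 0 in 2 *Med23*-deficient libraries and at 0.94 in the third, and its log2 fold changes were -1.49 (limma adjusted p = 0.156) and -1.77 (adjusted p = 0.205). Inside the cluster, the non-coding *4833403J16Rik* between *Gimap5* and *Gimap3* was 6.27, 4.69 and 4.49 in WT stage 2 and 9.96, 8.33 and 9.53 in WT stage 3 (log2 fold change 0.75 ± 0.17, limma adjusted p = 0.107).

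**Figure D4:**
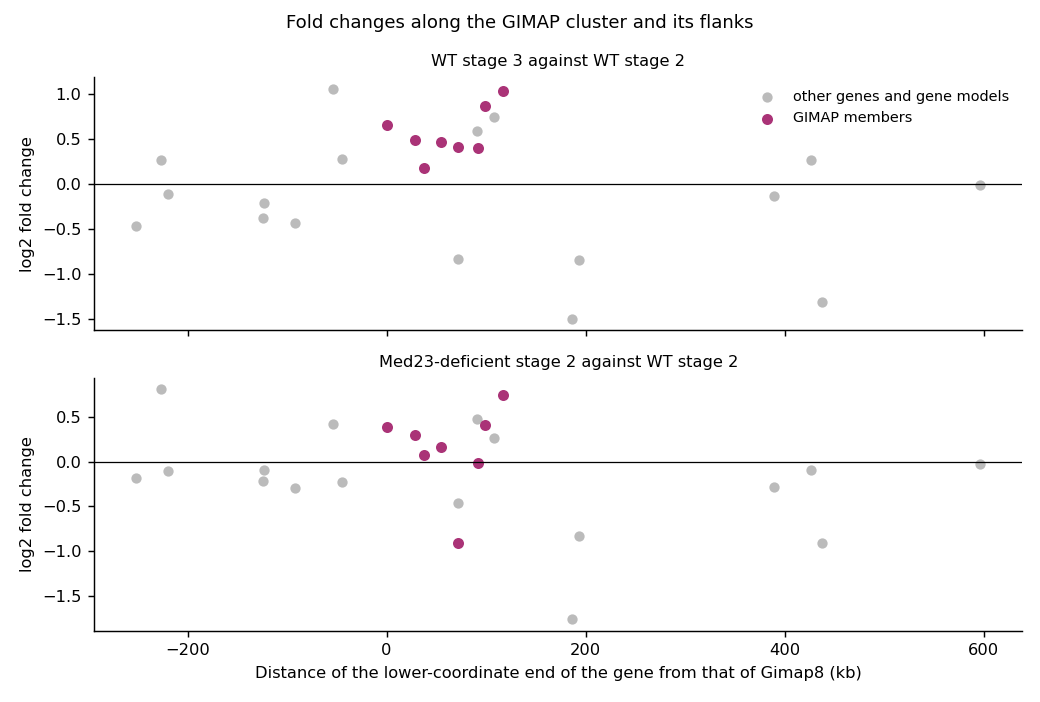
Log2 fold changes of (FPKM + 1) against distance in kb from the lower-coordinate end of Gimap8, for the 8 GIMAP genes and for the 17 other genes and gene models within 500 kb of the cluster that reach a mean FPKM of 1. The upper panel shows WT stage 3 and the lower Med23-deficient stage 2, each against WT stage 2. Members lie above 0 throughout the upper panel, while 10 of the 14 neighbours outside the cluster lie below 0. Some neighbours reached a mean of 1 only in WT stage 2 and so could only lie below 0.

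Upstream of the genes, the 250 bases before the RefSeq start (GRCm38.p6) were searched on both strands for motif words of factors active in T cells. All 8 members were in the table, *Gimap8* with a pair of starts. The ETS word GGAAGT was found in 2 members, *Gimap6* and *Gimap5*, and in 19.7% of the 32851 windows of all genes. The RUNX word TGTGGT was found in 3 members, *Gimap4*, *Gimap7* and *Gimap1*, and in 14.1% of all windows. The T-box word GGTGTGA was found in *Gimap8* and in 3.33% of all windows, and the AP-1 word TGANTCA in 0 members and in 6.75%. No window of a member held words of more than 1 kind. The windows of *Gimap5* and *Gimap3* are printed because these genes led the stage 3 difference and are the closest relatives in coding sequence. Capitals mark the ETS words, of which *Gimap5* has 2, and the window of *Gimap3* holds none of the 4 motifs.
Gimap5 (chr6:48745947-48746196, plus strand): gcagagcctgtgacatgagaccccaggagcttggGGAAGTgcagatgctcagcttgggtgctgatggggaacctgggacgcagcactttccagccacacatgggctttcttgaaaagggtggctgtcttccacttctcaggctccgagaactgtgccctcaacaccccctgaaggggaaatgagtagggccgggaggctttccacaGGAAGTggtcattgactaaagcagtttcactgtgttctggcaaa
Gimap3 (chr6:48770852-48771101, minus strand): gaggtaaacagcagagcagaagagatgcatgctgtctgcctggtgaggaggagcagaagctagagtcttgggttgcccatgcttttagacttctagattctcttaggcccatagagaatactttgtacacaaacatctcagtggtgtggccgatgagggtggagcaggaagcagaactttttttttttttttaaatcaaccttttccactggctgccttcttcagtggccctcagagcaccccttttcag
A match to such a short word is a description of the letters and does not show that a factor binds there.

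Genes linked to the family by function were set beside it. Of 18 partners, which are the BCL-2 family genes, the GSK3 kinases that *Gimap5* restrains, the chaperone *Hspa8* and the GABARAP and LC3 genes of autophagy, 0 were called by adjusted p in any of the 3 comparisons (limma). At an unadjusted p of at most 0.05 there were 3 higher and 2 lower in WT stage 3 against WT stage 2 (5.44% and 7.79% of all genes), 0 higher and 4 lower in *Med23*-deficient against WT stage 2 cells (3.56% and 6.02%), and 6 higher and 0 lower in WT stage 3 against *Med23*-deficient cells (4.89% and 5.32%). *Bcl2*, which keeps cells from apoptosis, was 7.17, 11.6 and 15.4 in WT stage 2, 33.8, 28.4 and 49.6 in WT stage 3 and 14.7, 11.6 and 26.6 in *Med23*-deficient cells. Its log2 fold change at stage 3 was 1.65 ± 0.31 (limma adjusted p = 0.074). *Bcl2l11*, which encodes the pro-death protein BIM, had 1.18 ± 0.38 (limma adjusted p = 0.249), and *Bak1*, which opens the outer mitochondrial membrane, had -0.77 ± 0.17 (adjusted p = 0.103). Against WT stage 2, the largest estimates in *Med23*-deficient cells were those of the LC3 gene *Map1lc3a* at -0.85 ± 0.30 (limma adjusted p = 0.436), of *Bak1* at -0.69 ± 0.12 (adjusted p = 0.122) and of *Bbc3*, which encodes the pro-death protein PUMA, at 0.66 ± 0.36 (adjusted p = 0.647). In WT stage 3 against *Med23*-deficient cells they were those of *Bcl2* at 1.08, *Bcl2l11* at 1.06 and *Gabarapl1* at 1.03 (limma adjusted p = 0.314, 0.161 and 0.233).

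The GIMAP genes are known to be high in naive T cells, so genes of the naive state and of thymic egress were looked at too. Of 11 such genes, 0 rose and 5 fell at stage 3 by adjusted p (limma), where 0.914% of all genes fell. The median log2 fold change was -0.60. At an unadjusted p of at most 0.05 there were 0 higher and 7 lower, beside 5.44% and 7.79% of all genes. Not all went down: 4 of the 11 had a higher mean log2 value at stage 3. These were *Bach2* at 0.44, *Klf2* at 0.37, *Il7r* at 0.29 and *Ets1* at 0.09 (limma adjusted p = 0.493, 0.401, 0.611 and 0.868). *Tcf7*, the transcription factor TCF-1 of early T cells, was 244, 173 and 195 in WT stage 2 and 35.1, 52.6 and 40.3 in WT stage 3 (log2 fold change -2.23, limma adjusted p = 0.0119). Its partner *Lef1* fell by 1.22, *Id3*, an inhibitor of E proteins, by 3.05, and the egress receptor *S1pr1* by 2.25 on the log2 scale (limma adjusted p = 0.0408, 0.0188 and 0.0343). *Ccr7*, a homing receptor, was 9.12, 7.83 and 12.1 in WT stage 2 and 0.00, 0.11 and 0.17 in WT stage 3 (log2 fold change -3.27, limma adjusted p = 0.00843). In *Med23*-deficient against WT stage 2 cells 0 of the 11 were called, with a median of -0.45, and at an unadjusted p of at most 0.05 there were 0 higher and 4 lower, beside 3.56% and 6.02% of all genes. The largest estimates there were those of *Ccr7* at -0.73, of *Foxo1*, a transcription factor of quiescence, at -0.68 and of *Id3* at -0.64. Against *Med23*-deficient cells WT stage 3 cells had 4 of the 11 lower by adjusted p (*Ccr7*, *Id3*, *Tcf7* and *Lef1*), where 0.705% of all genes were lower. At an unadjusted p of at most 0.05 there were 2 higher and 6 lower, beside 4.89% and 5.32% of all genes. The 2 higher were *Klf2* at 0.84 and *Il7r* at 0.73 (limma adjusted p = 0.192 and 0.367).

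Of 14 interferon-inducible GTPases, a family that also binds GTP but defends against pathogens, 2 rose at stage 3 and 0 fell (limma), where 0.759% of all genes rose. *Gbp4* was 12.1, 9.66 and 12.5 in WT stage 2 and 22.9, 20.6 and 20.1 in WT stage 3 (log2 fold change 0.85, limma adjusted p = 0.042), and *Gbp8* had 0.83 (limma adjusted p = 0.0251). The largest difference was that of *Iigp1*, at -1.62 (limma adjusted p = 0.0714), after which came *Gbp3*, at 1.51 (adjusted p = 0.441). The median of the 14 was 0.11 at stage 3 and 0.03 in *Med23*-deficient cells, where 0 were called, and 2 were higher and 1 lower at an unadjusted p of at most 0.05 (3.56% and 6.02% of all genes). The largest estimates there were those of *Gbp3* at 0.81, *Gbp4* at 0.73 and *Iigp1* at -0.58 (limma adjusted p = 0.731, 0.197 and 0.422). In WT stage 3 against *Med23*-deficient cells 0 were called, with 2 higher and 1 lower at that unadjusted p (4.89% and 5.32% of all genes), and the largest estimates were those of *Iigp1* at -1.04, *Gbp3* at 0.70 and *Gbp5* at 0.54.

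**Figure D5:**
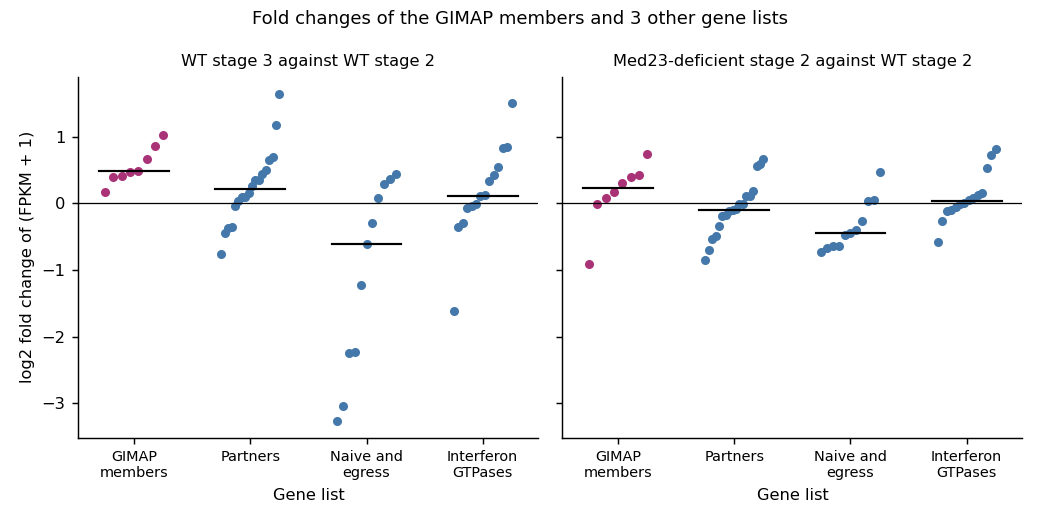
Log2 fold changes of (FPKM + 1) of the 8 GIMAP genes, 18 partners, 11 naive and egress genes and 14 interferon-inducible GTPases, in WT stage 3 (left) and Med23-deficient stage 2 (right), each against WT stage 2. Points are genes, sorted within a list, and bars are medians: 0.48, 0.21, -0.60 and 0.11 on the left and 0.24, -0.09, -0.45 and 0.03 on the right.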

How the data were processed

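The authors deposited FPKM for 21883 genes in 9 libraries, in a single table with 2 decimals. RNA was extracted with Trizol and libraries were made with a stranded low-input total RNA kit. The authors trimmed reads with Trimmomatic 0.36, aligned them to mm10 with HISAT2, kept those hitting no more than 2 loci and quantified GENCODE vM12 genes with StringTie. Without counts the depth is unknown and no counting interval can be given. Neither labels nor headers name a batch.

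Groups came from the labels. log2(FPKM + 1) was tested with limma 3.58.1 in R 4.3.3 (mean-variance trend, checked on simulated data) over genes above 0 in at least 1 of the 6 libraries compared, with Benjamini-Hochberg adjustment over all of them. Single values had exact permutation tests (scipy 1.17.1), with a smallest p of 0.1. Alternatives changed the pseudocount, filter, scaling, trend, model and libraries. Named were all 8 members, neighbours within 500 kb reaching a mean FPKM of 1, the called genes and the 3 largest differences of each list. The naive and egress genes that were higher at stage 3, and the 5 genes most like the family, were named too. A gene of the naive and egress list and a gene of the double-positive thymocyte list are not reported here and were left out of the counts. Members and lists were chosen with earlier results of these data known. Python 3.11.15 made the figures and read sequences from GENCODE vM21 and RefSeq. The authors' own fold changes and p-values were not used.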

Additional observations from a re-analysis of the deposited data

How the results depend on the processing

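In WT stage 3 against WT stage 2, 8 of 8 members had the higher mean in each setting that kept all libraries. The number called by adjusted p (1) became 0 on the TPM scale, after quantile normalization, in a Ballgown-style model and with a replicate block, became 2 with all 9 libraries in the fit, and ranged from 0 to 1 when single libraries were left out. The count passing both the fold and the p threshold (1) became 0 on the TPM scale and ranged from 0 to 1 with libraries left out. In *Med23*-deficient against WT stage 2 cells it (0) became 1 (*Gimap7*) with a pseudocount of 0.1 or 0.01, and ranged from 0 to 1 with libraries left out. The cause of these shifts was not tested. *Gimap3* at stage 3 kept its direction in 16 of 16 alternatives, between 0.93 and 1.14, and was called in 6 (adjusted p 0.0162 to 0.523). Of the gene values, 10 reversed, all of *Gimap1* or *Gimap4*. *Gimap1* in *Med23*-deficient cells was 0.084 with upper-quartile scaling, 0.065 after quantile normalization, 0.88 in the Ballgown-style model and between -0.33 and 0.48 with libraries left out. With libraries left out, WT stage 3 *Gimap1* ranged from -0.11 to 0.90 against WT stage 2 and from -0.091 to 0.77 against *Med23*-deficient cells, both lowest without WT stage 3 replicate 2. *Gimap4* was -0.053 in *Med23*-deficient cells on the TPM scale, and from -0.072 to 0.21 in WT stage 3 against *Med23*-deficient cells with libraries left out, lowest without WT stage 3 replicate 1. On the TPM scale the median over genes whose mean FPKM reached 1 was -0.16 in *Med23*-deficient against WT stage 2 cells, in place of -0.05.

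Groups share replicate numbers, but nothing says what a number stands for, so the main fits did not take them as pairs. Correlations of deviations from the group means ranged from 0.0043 to 0.272 for same-numbered libraries. For different-numbered libraries they ranged from -0.175 to 0.124. Replicate 3 libraries, at 0.144 to 0.272, were above all different-numbered ones, and whether they share a source of variation was not tested. With the replicate block the genes called fell from 346 to 19 in WT stage 3 against WT stage 2, from 44 to 0 in *Med23*-deficient against WT stage 2 cells and from 278 to 42 in WT stage 3 against *Med23*-deficient cells. Over all genes, leaving out single libraries gave 22 to 137, 1 to 8 and 72 to 174 calls, the Ballgown-style model 5, 1 and 11, and all 9 libraries 626 and 176 in the first 2 comparisons. The TPM scale gave 224 in the first, and a pseudocount of 0.01 gave 77 and a filter at a mean FPKM of 1 gave 143 in the second. With a pseudocount of 0.1 the genes past both the fold and the p threshold went from 745, 437 and 597 to 1423, 971 and 1221. Under the replicate block *Gimap3* at stage 3 had a log2 fold change of 1.03 and an adjusted p of 0.0744. *Gimap1* at stage 3 had 0.40 there, with a limma unadjusted p of 0.0146 and an adjusted p of 0.236. Depth could not be read from FPKM, and *Gimap7*, the lowest member, is the one whose value a few reads could move most.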
